A study of Mus musculus with 24 samples.

Results

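The sites described here are the places in the mouse genome where Rad21, a subunit of the cohesin ring, still gave a peak in chromatin immunoprecipitation with sequencing (ChIP-seq) after Rad21 had been targeted for degradation. Peaks on mouse chromosomes in the 2 Rad21 lists of auxin-treated Rad21degron cells were merged into 3994 sites. The 830 sites (20.8%) overlapped by a peak of both lists are the members, and the other 3164 lay in 1 list only. The merged mouse peaks of all 16 lists of the series make 90338 sites. The members were thus chosen by the presence of a peak in those 2 lists, and their values there are given as a description with no test.

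All cells were v-Abl transformed mouse pro-B lines that were RAG2 deficient and carried Emu-Bcl2, and every culture received the Abl kinase inhibitor STI-571 at 3 µM for 4 days. In the Rad21degron line, Rad21 carries a tag that directs it to degradation when the auxin IAA is present. The 2 libraries that define the members came from Rad21degron cells given 500 µM IAA for 6 h and then with STI-571, and 2 further Rad21 libraries came from the same line without IAA. Rad21 and CTCF libraries, 3 of each, came from the parental line without IAA, and 3 of each from a CTCFdegron line with IAA, so that line and IAA change together in that comparison. Nothing in the labels says whether replicates were separate cultures or whether a line is 1 clone, and p-values measure only the spread between these libraries. Peak lists carry no read counts, and the depth of every library is unknown.

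Cohesin is a ring complex that holds DNA and extrudes loops, and CTCF is a zinc finger protein that halts cohesin at bound sites. Rad21 is the subunit that closes the ring, so its loss opens the complex. Repeated sequence such as centromeric satellite, ribosomal DNA and recent gene duplications is only partly assembled in a reference genome. Reads from many genomic copies can then be placed on few reference copies. Active promoters, rich in CpG dinucleotides and open to sonication, are another class of region that gives peaks with many antibodies.

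Representative sequences show how different the sites are. All are on the plus strand of NCBIM37 (mm9), each from the middle of the site's longest stretch without an annotated exon. In the first, at chr2:98505094-98505333, an array with a period of 120 bases, capitals mark 2 matches to the letters of the CENP-B box, the motif bound by a centromere protein in minor satellite DNA. The next 3 come from sites called tandem arrays, with periods of 234, 31 and 33 bases. They lie at chr9:3009065-3009298, chrX:166445074-166445197 and chr5:37052063-37052194 and are shown without capitals. The chr9 stretch is as long as its period, so no repeat is visible in it.
chr2 array: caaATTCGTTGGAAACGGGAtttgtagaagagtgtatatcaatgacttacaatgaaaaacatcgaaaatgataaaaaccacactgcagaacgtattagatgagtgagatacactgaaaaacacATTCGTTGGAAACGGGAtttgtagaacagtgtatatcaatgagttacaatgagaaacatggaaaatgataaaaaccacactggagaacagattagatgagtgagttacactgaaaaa
chr9 array: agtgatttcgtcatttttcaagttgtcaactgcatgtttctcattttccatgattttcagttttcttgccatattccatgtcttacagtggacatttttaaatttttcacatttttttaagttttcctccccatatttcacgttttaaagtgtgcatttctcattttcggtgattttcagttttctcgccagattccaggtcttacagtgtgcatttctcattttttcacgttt
chrX array: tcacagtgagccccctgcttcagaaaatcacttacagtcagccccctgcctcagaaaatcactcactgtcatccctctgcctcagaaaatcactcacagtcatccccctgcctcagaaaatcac
chr5 array: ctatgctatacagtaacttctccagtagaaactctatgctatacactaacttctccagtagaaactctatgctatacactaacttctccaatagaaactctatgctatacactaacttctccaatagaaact

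The other kind of site is a promoter with many CpG dinucleotides, marked here by capitals. Arrdc3 encodes an arrestin-domain protein, Clcn4-2 a chloride/proton exchanger, and Rps19 and Rps26 are proteins of the small ribosomal subunit. The stretches are chr13:81024971-81025170 (Arrdc3, 21 CpG), chr7:7252259-7252458 (Clcn4-2, 22 CpG), chr7:25669134-25669333 (Rps19, 13 CpG) and chr10:128063747-128063946 (Rps26, 8 CpG).
Arrdc3: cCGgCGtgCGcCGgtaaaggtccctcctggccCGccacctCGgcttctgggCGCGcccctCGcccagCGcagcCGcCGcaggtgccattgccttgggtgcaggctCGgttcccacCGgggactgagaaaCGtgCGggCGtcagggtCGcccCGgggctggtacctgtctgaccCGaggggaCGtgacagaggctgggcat
Clcn4-2: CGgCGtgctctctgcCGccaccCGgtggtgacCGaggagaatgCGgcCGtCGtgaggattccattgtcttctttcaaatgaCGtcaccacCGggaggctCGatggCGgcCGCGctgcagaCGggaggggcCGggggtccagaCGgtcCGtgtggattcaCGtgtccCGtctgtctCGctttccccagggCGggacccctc
Rps19: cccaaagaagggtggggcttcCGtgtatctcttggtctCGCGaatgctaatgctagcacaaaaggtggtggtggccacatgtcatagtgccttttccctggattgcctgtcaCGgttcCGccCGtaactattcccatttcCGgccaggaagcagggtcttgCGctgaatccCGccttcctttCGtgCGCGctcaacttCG
Rps26: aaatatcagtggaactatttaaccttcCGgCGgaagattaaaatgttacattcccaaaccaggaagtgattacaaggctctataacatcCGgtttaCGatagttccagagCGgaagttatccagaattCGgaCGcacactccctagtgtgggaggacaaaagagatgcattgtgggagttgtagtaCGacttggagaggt

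The lists hold between 1384 and 67810 mouse peaks, and the 2 defining lists hold 3588 (replicate 1) and 1384 (replicate 2). Beside those, the same 2 libraries held 5603 and 5481 peaks on human contigs, from HCT116 cells (a human colorectal carcinoma line) added as a spike-in, as in 8 of the 16 libraries. Members took in 23.9% of the mouse peaks of replicate 1 and 68.8% of those of replicate 2, against 1.01% to 8.11% in the other 14 lists. The rule itself sets this contrast, since members are the overlap of those 2 lists, which are also the shortest. The narrowest peak of each list is 51 bp. No mouse peak lay outside chromosomes 1 to 19, X, Y and M. The highest peak end exceeded the reference length on chromosome 12 alone, where the authors' hybrid genome differs from mm9. The 16 members from position 110000000 of chromosome 12 onward are therefore counted but not annotated, and 814 members have mm9 sequence.

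The members fall into classes fixed by peak height and position. A member was called very high where all 16 lists had a peak with a fold enrichment (column 7 of the authors' lists) of 20 or more, and 8 sites met this. A further 207 members lay within 1000 bp of an annotated transcript start (promoter), and 599 were distal. Members at promoters make 24.9% of the 830, a share that was 52.7% without replicate 2 and 28.6% without replicate 1 of the defining libraries. Among the other Rad21 sites, defined as the 18250 sites with a peak in both untreated Rad21degron lists and no overlap with a member, 19.5% lay at promoters. The promoter share was 60.0% among the sites in 1 defining list only. By position within genes, 213 of the 814 annotated members overlapped an exon, 135 an intron only, and 466 (57.2%) no gene. For the other Rad21 sites the intergenic share was 46.7%.

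Most members were repeated in the reference genome. A site was called multi-copy where at least 50% of the 31-base words of its central 200 bases occurred at more than 1 place in mm9. This held for 556 of 814 members (68.3%), and for 3.13% of the other Rad21 sites. Among the sites in 1 defining list only the share was 24.9%. The median word of a member occurred 4 times (quartiles 1 and 12), and the highest median was 14357. The share was 80.8% of distal and 31.9% of promoter members. Members and other Rad21 sites also differed in base composition, with median GC contents of 44.0% and 48.5%. For sites in 1 defining list only the median was 59.1%. Of the 814 members, 43 were tandem arrays, meaning that the sequence matched itself at 1 period with an identity of at least 70%.

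**Figure D1:**
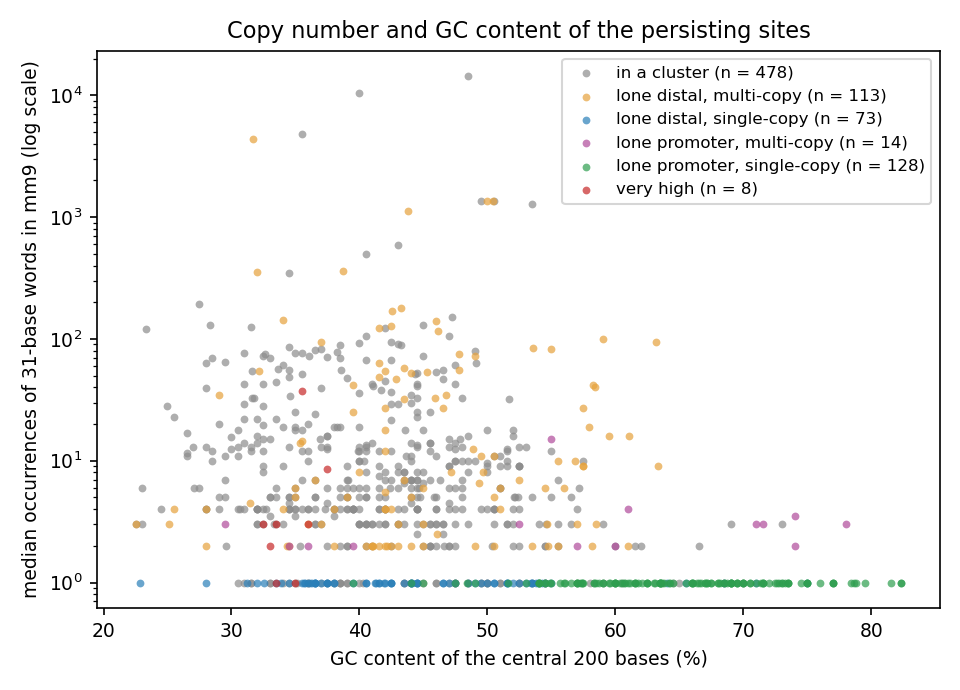
Each point is 1 of 814 persisting sites, placed by the GC content of its central 200 bases in percent (x axis) and the median number of occurrences of its 31-base words in mm9 (y axis, log scale), and coloured by kind. The 128 lone single-copy promoters lie at 1 occurrence with a median GC of 64.4%, while sites in clusters have a median of 6 occurrences.

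The members were also unevenly placed. Chromosome X held 225 of them (27.1%), chromosome 8 held 122 (14.7%) and chromosome 5 held 74 (8.92%), against 1.93%, 4.31% and 6.06% of the other Rad21 sites. Chromosome Y held 22 members and none of the other Rad21 sites. Chaining members less than 100 kb apart gave 310 groups. Of these, 249 were single sites and 23 were clusters of at least 5 members. The clusters held 484 members (58.3%), and the 3 largest held 279 (33.6%). Members of a cluster are neighbours, most of them with repeated sequence, and are not counted as independent of each other.

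**Figure D2:**
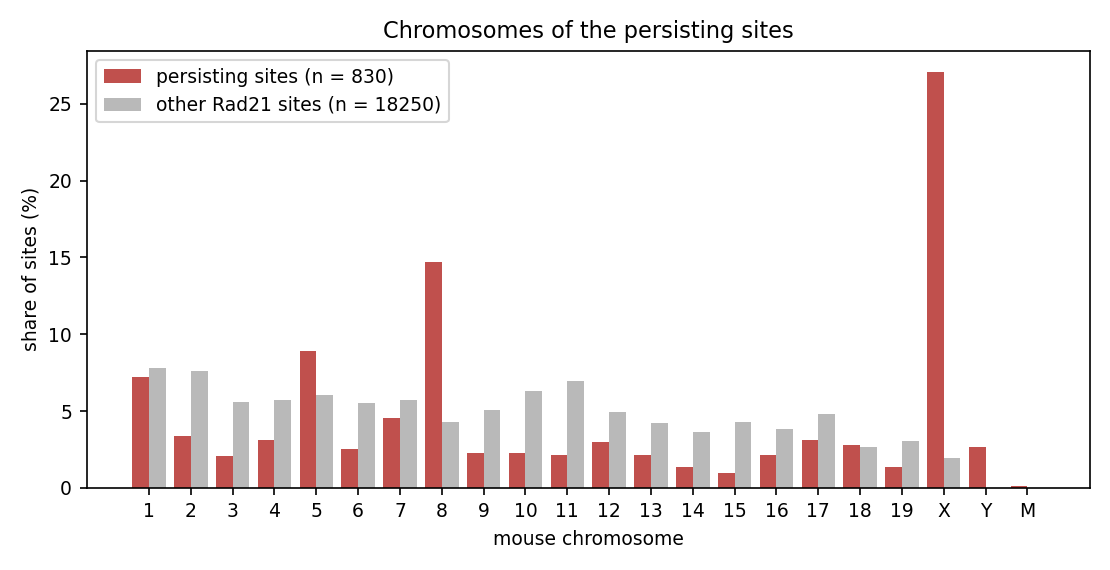
Bars give the share of sites in percent (y axis) on each mouse chromosome (x axis) for the 830 persisting sites and the 18250 other Rad21 sites. Chromosome X holds 27.1% of the persisting sites and 1.93% of the others, and chromosome 15 holds 0.964% and 4.27%.

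The largest cluster spans chrX:120272024-121315768 and holds 137 members, 129 of them multi-copy, with a median of 16 occurrences. The annotated genes there include Vmn2r121, a vomeronasal receptor gene, and the Astx2, Astx5 and Astx6 transcripts, copies of an ampliconic family of the X chromosome. The 3 Mb of X from 120 Mb on, with further clusters around Astx1a, Astx1b and Astx3, held 192 members. The members of the largest cluster had a peak in a mean of 100% of sites in the CTCF parental lists and 99.8% in the CTCF lists of CTCFdegron cells. In Rad21 lists the means were 69.0% (untreated Rad21degron), 67.6% (parental) and 87.8% (CTCFdegron with IAA). Only 2 of the other Rad21 sites lie within the 1044 kb it spans.

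The second cluster, at chr8:19685801-20037184, holds 95 members that cover 50.8% of 351 kb. Its single widest member is 33732 bp, and 92 of the 95 are multi-copy with a median of 4 occurrences. The annotation there names 2610005L07Rik, 6820431F20Rik, 4930467E23Rik and Gm10060. At chr5:14900006-15221631, 47 members lie among Speer4c, Speer4d, Speer4e and Speer7-ps1, genes of a family expressed in testis. These members had a peak in a mean of 28.7% of sites in the untreated Rad21degron lists, below the 69.0% and 81.6% of the 2 larger clusters, and in 96.5% in the CTCF parental lists. On chromosome 1, 26 members lie at 85078895 to 85278955 around C130026I21Rik, and 16 at 87391561 to 87522063 around Sp110 and Sp140, genes of a family of nuclear body proteins. All 42 were multi-copy, with a median of 7 occurrences in each cluster.

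Smaller clusters lie at well-known repeated loci. At chr7:67002411-67041320, 10 members, all multi-copy, lie in the SNORD116 array of imprinted small nucleolar RNAs. At chr10:57684198-57702371, 8 members lie over Dux, a multi-copy homeobox gene. At chrX:166424831-166579116, around Mid1, a gene that spans the pseudoautosomal boundary in laboratory mice, 17 members include 11 arrays with a period of 31 bases. At chr11:3000408-3100024, near the start of the assembled chromosome, 10 members cover 72.7% of 99.6 kb around Sfi1 and Pisd-ps1, and 3 are multi-copy. Not all clusters are repeated in the reference. The 8 members at chr7:38963480-38985148, over 1600014C10Rik, and the 5 at chr4:144998735-145037370, over Gm13230, hold no multi-copy site.

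Of the 8 very-high sites, 7 were the highest in every list. The highest of all, chr2:98506390-98507504 over the exon of Gm10800, had a fold enrichment of 29120 and 21655 in the 2 defining lists. Its value ranged from 11063 to 39184 over all 16 lists and was the highest mouse peak in each of them. The second, the intergenic site chr12:3109862-3110128, had values of 7815 and 5507 and ranked second in all 16. The sites chr6:103599035-103599294 (4125 and 3303), chr2:98502385-98503150 (2827 and 2243) and chr9:35112794-35113189 (2879 and 2054) held ranks between 3 and 6. The nearest annotated transcript start was 27195 bp from the chromosome 12 site and 60337 bp from the chromosome 6 site, which lies in an intron. In each of the 16 lists the 7 highest mouse peaks all lay in 7 of the 8 sites, whatever the antibody and the protein degraded. The eighth, chr2:98503815-98504252, had 56.2 and 37.3 in the defining lists, below several members outside the class.

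The very-high sites share sequence with each other. Of the distinct 31-base words of the chromosome 12 site, 75.9% also occur in another very-high site, and 49.5% of those of the chromosome 6 site do. The lowest share, 4.37%, belongs to the widest site, chr9:2999991-3038320, of 38330 bp. It was called a tandem array with a 234-base period, the unit length of mouse major satellite. In a site this wide the period was read from the start of the site alone. The array chr2:98505036-98505392, with an identity of 88.6% at a period of 120 bases, the unit length of minor satellite, holds 3 matches to the CENP-B box letters NTTCGNNNNANNCGGGN on either strand. Such matches occurred in 6 of 814 members, of which 4 were very high. The rest were the distal site chr9:24346447-24346612 and the Lamp1 promoter site chr8:13159012-13159296, which shares 0% of its words with a very-high site. Matches at other Rad21 sites were not counted, so there is no share to set beside these. The 120-base period repeats within the chr2 stretch printed above. The printed chr9 stretch is 234 bases long, so it cannot show a repeat at that period.

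Values on either side of the limit of 20 were as follows. Just inside were the sites chr2:98505036-98505392, chr9:2999991-3038320 and chr2:98503815-98504252, with lowest values of 914, 249 and 20.9 over the 16 lists. Just outside were chr15:74915910-74917488 (14.8), chr17:39979936-39985781 (12) and chrX:73843898-73844481 (10.8). Outside the membership rule, the 2732 sites of replicate 1 alone had a median fold enrichment of 4.86 and a highest value of 9.89, against a median of 5.74 for members. For the 432 sites of replicate 2 alone the median was 4.67 and the highest 7.19, against 5.19 for members.

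**Figure D3:**
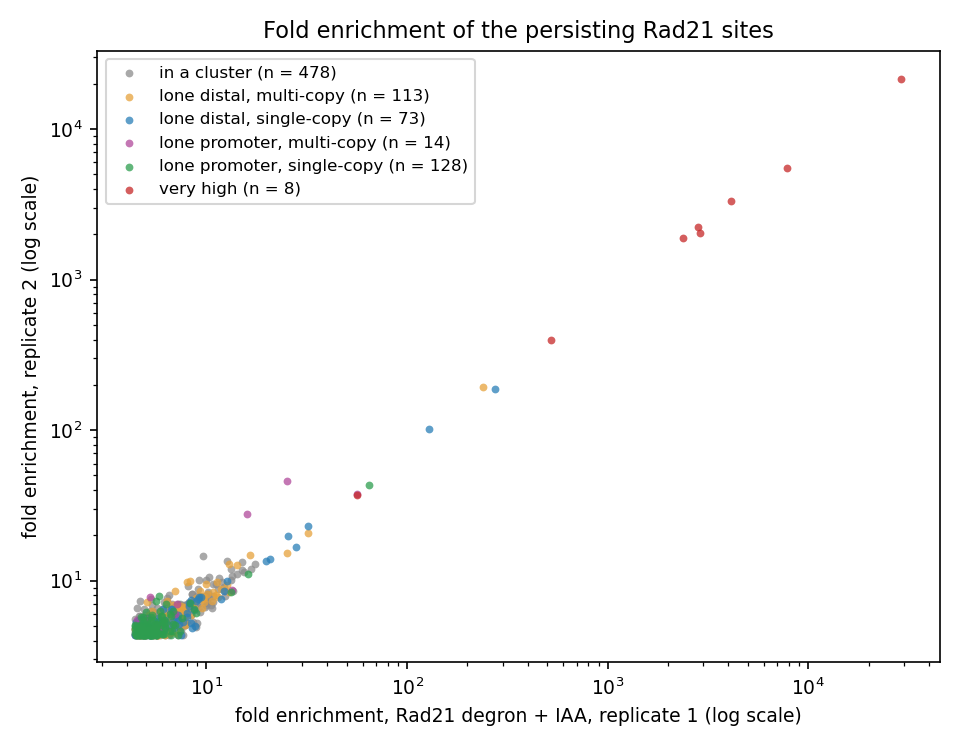
Each point is 1 persisting site with its fold enrichment in replicate 1 (x axis, log scale) and replicate 2 (y axis, log scale) of Rad21 ChIP after Rad21 degradation, coloured by kind. Most sites lie near the medians of 5.74 and 5.19, and the 8 very-high sites reach 29120 and 21655.

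Another 3 sites ranked next after those 7, above the eighth in the defining lists, but were missing from 2 lists. The sites chr13:77578168-77578317 (239 and 194 in the defining lists), chrX:139917539-139917659 (274 and 189) and chr9:24346447-24346612 (128 and 102) ranked between 8 and 11 in each of 14 lists. At the first 2 of these, 65.0% and 38.5% of the words also occur in a very-high site, and at the third 6.92% do. None of the 3 had a peak in replicate 3 of the parental Rad21 libraries or replicate 3 of the CTCFdegron Rad21 libraries. In all, 30 members were missing from exactly these 2 lists and present in the other 14. What sets these 2 libraries apart was not tested.

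Very GC-rich and mitochondrial sites led the promoter class. The site chr17:39979936-39985781 over AY036118, annotated as a pseudogene and with a GC content of 70.5%, had fold enrichments of 64.9 and 42.9 in the defining lists. Its values ran from 12 to 41.8 in the other 8 Rad21 lists, and from 58.1 to 170 in the 6 CTCF lists. The site chr16:11143992-11144403, annotated as mmu-mir-689-2 and with a GC content of 78.0%, had 56.0 and 37.7. The whole mitochondrial chromosome formed 1 member of 16298 bp, with 25.2 and 46.2, and it was among the sites that were higher in replicate 2. A further 4 members on chromosomes 1, 2 and 12 share over 50% of their words with it. The longest of them, chr1:24618384-24623010 over Gm10222, shares 98.8% and had 15.9 and 27.9. Fold enrichments were set within each list, and values of different lists are given side by side without a comparison.

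Other leading promoter members were in the clusters already described. Gm10060, on chromosome 8, had 12.3 and 7.89 in the defining lists and ranked between 12 and 117 in all 16. Astx6 and Gm14950 on X had 10.3 and 10.6, and 10.3 and 7.84. The site at 2610005L07Rik had 10.1 and 7.79, and the site at Gm15247, near the end of X, 10.5 and 6.90. The annotated small RNAs mmu-mir-2134-4 (at 2 places, on chromosomes 9 and 13) and AC113316.1 had 13.4 and 8.71, 7.14 and 7.01, and 8.26 and 7.14, and each was missing from 2 to 4 lists. The distal members that led their class after the 3 described above were chr15:74915910-74917488 (32.1 and 23), chr16:57391249-57391799 (32.2 and 20.7) and chrX:73843898-73844481 (25.5 and 19.9). They were followed by chr3:5860363-5860820 (25.2 and 15.2) and the 33-base array in the intron at chr5:37051910-37052347 (16.4 and 14.8). All 5 had a peak in all 16 lists.

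**Figure D4:**
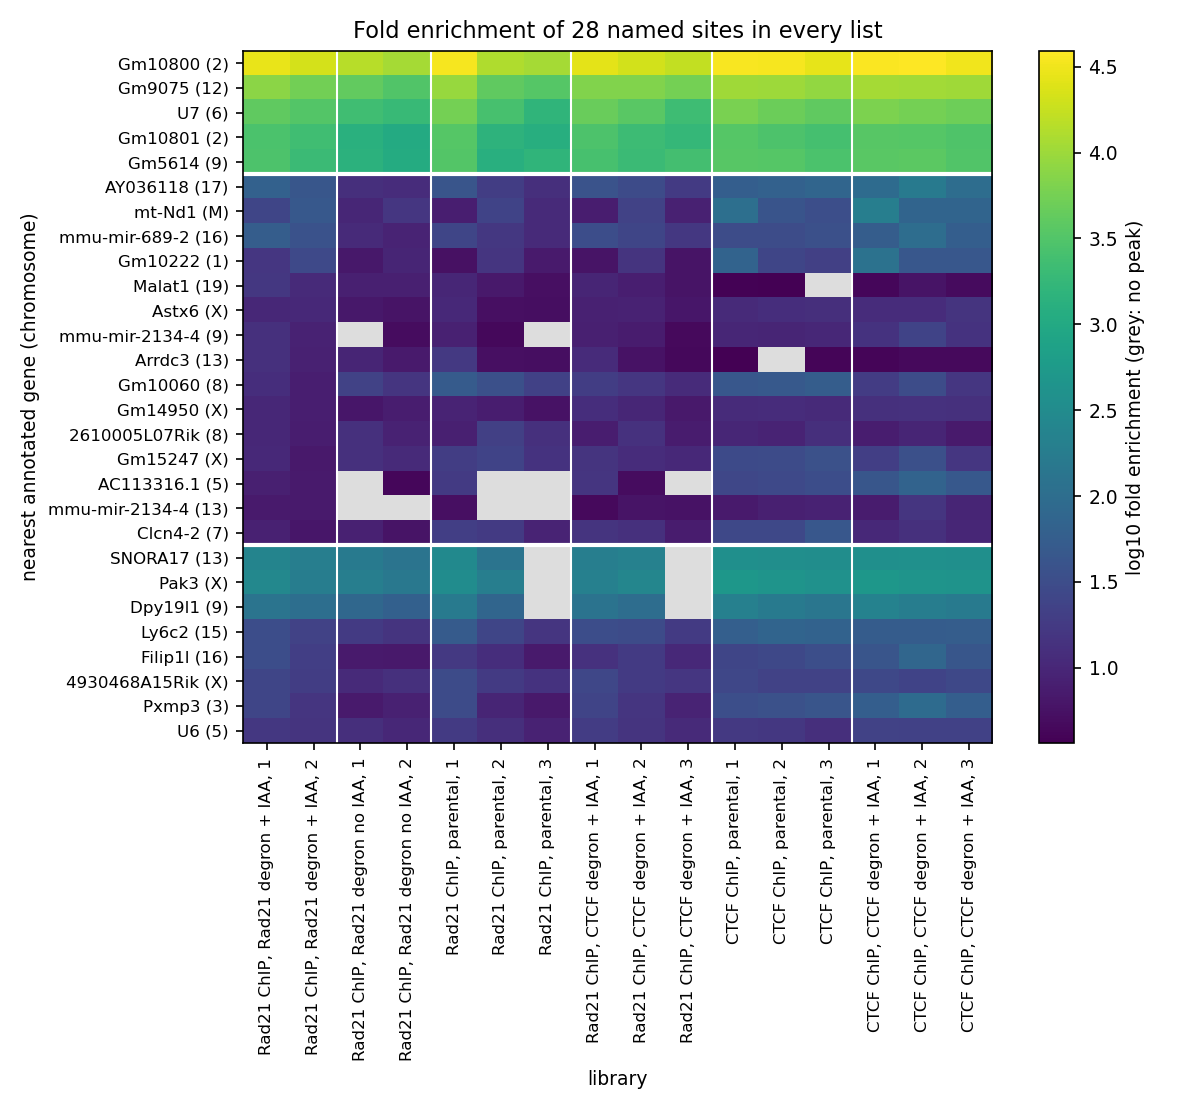
Colour gives the log10 fold enrichment of 28 named sites (rows, by nearest gene and chromosome) in each of the 16 libraries (columns), with grey where a list has no peak. White lines part the very-high, promoter and distal sites and the groups of libraries; the sites near SNORA17, Pak3 and Dpy19l1 are grey in replicate 3 of the parental and CTCFdegron Rad21 libraries alone.

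A set of 128 promoter members was neither clustered nor multi-copy in the reference assembly. Their copy number in the cells is not known. Their median GC content was 64.4%, their ratio of observed to expected CpG 0.907, and their median width 220 bp. At promoters of other Rad21 sites GC content and the CpG ratio were 58.5% and 0.638. These members were mostly weak, with median fold enrichments of 5.27 and 4.76, near the lowest values in the 2 lists (4.43 and 4.38). The highest values of the set, 64.9 and 42.9, were those of AY036118, far above these medians. Its CTCF values were also high, from 58.1 to 170. Whether its peaks come from a promoter or from repeated sequence was not tested. Of the named promoter sites, those in this set besides AY036118 and AC113316.1 were Malat1 (16.1 and 11.1), an abundant nuclear noncoding RNA, Arrdc3 (13.3 and 8.40) and Clcn4-2 (8.64 and 6.45). The named Malat1 and Arrdc3 sites lacked a peak in 1 CTCF parental list each. Their CTCF values ran from 3.64 to 6.03, where the lowest peaks of the 6 CTCF lists lie at 3.31 to 4.06. A second member of the set, chr19:5802585-5802797 over the Malat1 start, had 5.08 and 5.51 in the defining lists. It had a peak in all 16 lists. Clcn4-2 had a peak in all 16 lists, with 26.9 to 45.7 in the CTCF parental lists and 9.70 to 13.4 in the CTCFdegron ones.

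Housekeeping genes occurred among these promoters, in small numbers. Of 22143 protein-coding genes, 183 (0.826%) had a start within 1000 bp of a promoter member, and 13.8% near another Rad21 site. Among ribosomal protein genes the count was 4 of 81 (Rps12, Rps19, Rps26 and Rps3a), or 4.94%. Rps19 had 6.19 and 4.92 in the defining lists and Rps3a 5.45 and 5.11, and both had a peak in all 16 lists. Rps26 had 4.63 and 4.91 and Rps12 had 5.23 and 4.38. Among 29 genes named Hsp the count was 3 (10.3%). Hspd1 and Hspe1, the mitochondrial chaperonin and its partner, share 1 promoter site, chr1:55144681-55145041, with 5.36 and 4.79. Hspa14 had 5.69 and 4.46. Of 67 replication-dependent histone genes, Hist1h4d alone did (4.58 and 4.42). None of the 13 cohesin and CTCF machinery genes, the 12 B-lineage factors or the 10 Abl, cell-cycle and survival genes had a promoter member. The same held for a list of 35 small RNA genes, such as small nuclear, 7SK, RNase P and vault RNAs. The miRNA genes named above, which do have promoter members, are not in that list. At other Rad21 sites those lists had 7, 8, 5 and 13 genes. The other 3 lists were also frequent there, with 27.2% of ribosomal protein, 20.7% of Hsp and 28.4% of histone genes beside the 13.8% of all genes.

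Short motifs were searched on both strands from 250 bases before to 50 after the nearest start. The 121 protein-coding genes at lone single-copy promoter members were set beside 2756 genes at other Rad21 sites and 22130 genes in all. The ETS-type motif CCGGAAG lay in 31.4% of the windows, against 17.1% and 10.8%. The SP/KLF motif GGGCGGG lay in 51.2%, against 41.0% and 31.8%, and the cyclic AMP response element TGACGTCA in 9.09%, against 2.87% and 2.31%, Clcn4-2 among them. TATAAA occurred in 6.61%, against 7.00% and 13.4%. The windows also differed in GC content, with medians of 62.3%, 59.7% and 55%, and its part in the motif shares was not tested. The core CTCF motif occurred in none of the 121 windows, against 3.19% and 0.533%. Within 300 bases around the site centre, it occurred in 2 of 805 members outside chromosome 12 (0.248%), in 18.5% of other Rad21 sites, and in 17.1% of sites with a CTCF peak in all 3 parental libraries. Most of those CTCF sites also lacked the motif, so a single window without it does not tell whether CTCF binds there. What sets these shares apart was not tested.

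A group of 73 distal members was neither clustered nor multi-copy, and 59 of them lay outside genes. Their median GC content was 43.5% and their median fold enrichments 6.10 and 5.33. The named sites on chromosome 15 and at chrX:73843898-73844481 belong to it. So do the site near Pak3, which shares 38.5% of its words with a very-high site, and chr9:24346447-24346612, which shares 6.92%. The latter also holds a match to the CENP-B box letters. Single-copy refers to the reference assembly alone.

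Presence in the other lists was then compared over libraries. No member was confined to the 2 defining lists, since every one had a peak in at least 4 of the 16. A peak in all 16 was found for 255 members (30.7%), and 12.5% of the other Rad21 sites had a peak in all 14 remaining lists. These shares are not alike, since the other sites have a peak in both untreated lists by definition and the members do not. In the untreated Rad21degron lists, 594 and 477 of the 830 members had a peak. By site, 438 were in both lists, 195 in 1 and 197 in neither. The 197 had median fold enrichments of 5.22 and 4.82 and a median width of 244 bp, against 6.33, 5.66 and 490 bp for the 438. Of the 197, 59.9% lay in clusters, close to the 57.8% of the 438.

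The untreated Rad21degron lists were compared with the parental Rad21 lists, in which 812, 515 and 402 members had a peak. The shares were 64.5% ± 9.97 (SD, n = 2) and 69.4% ± 25.5 (SD, n = 3), which overlapped. The difference of -4.92 percentage points was smaller than the spread (exact two-sided permutation p = 1, smallest possible 0.2). The direction rests on parental replicate 1, the 1 parental Rad21 library with no spike-in and the longest list. Without it, which is also the comparison of spike-in libraries alone, the difference was 9.28. Without untreated replicate 2 it was 2.13.

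In Rad21 libraries of CTCFdegron cells with IAA, 807, 709 and 576 members had a peak, a mean of 84.0% ± 14 (SD, n = 3). This was 14.6 percentage points above the same parental libraries (69.4% ± 25.5), and the groups overlapped (exact permutation p = 0.5, smallest possible 0.1). Single libraries moved the difference: it was 4.08 points without parental replicate 3, 7.97 without CTCFdegron replicate 1, 21.9 without CTCFdegron replicate 3 and 28.8 without parental replicate 1. It was 6.45 with peaks at a -log10 q of at least 3, and 22.2 within the spike-in libraries alone. Every list outside the rule was also shortened to the length of the shortest, keeping its peaks with the highest fold enrichment. The shares were then 49.0% and 9.68%, a difference of 39.3 points (exact permutation p = 0.1). Such a cut depends on how many stronger peaks a list holds elsewhere. It cannot separate list length from a loss of other peaks. The comparison of CTCFdegron with parental Rad21 lists and the previous one use the same 3 parental libraries. All 3 parental libraries had a Rad21 peak at 343 members (41.3%), and at 85.8% of the other Rad21 sites. The other sites, unlike the members, were chosen by a Rad21 peak in both untreated lists. All 3 CTCFdegron libraries had one at 537 members (64.7%) and at 35.8% of the other sites. None of the 3 parental libraries had one at 16 members, and none of the 3 CTCFdegron libraries at 16, both 1.93%, against 1.06% and 38.3% of the other Rad21 sites.

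Members and other Rad21 sites were compared within those CTCFdegron Rad21 libraries. There, 84.0% ± 14 of members and 50.4% ± 12.3 (SD, n = 3) of other Rad21 sites had a peak, a within-library difference of 33.6 ± 4.02 points that was positive in 3 of 3 libraries. The exact sign-flip permutation p was 0.25, the smallest that 3 libraries allow. With the lists shortened the difference was 10.4 points, positive on average. Restricting the members to the single-copy ones gave 37.8 points, and counting members within 100 kb as 1 gave 38.0. In the single-copy setting the members left out could count as other Rad21 sites, whose share was then 51.2%.

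CTCF lists held most members in both lines. A CTCF peak was present at 789, 760 and 755 members in the parental libraries (92.5% ± 2.21, SD, n = 3), and at 817, 799 and 749 in CTCFdegron cells with IAA (95.0% ± 4.24, SD, n = 3). The difference of 2.45 points was smaller than the spread, and the groups overlapped (exact permutation p = 0.5, smallest possible 0.1). It was 65.9 points with the lists shortened to their highest peaks, where 88.1% and 22.2% of members had a peak (exact permutation p = 0.1). That value has the limit given above for shortened lists. The difference was 10.6 points when only peaks with a fold enrichment of at least 4 were kept. With 1 library left out it ranged from 0.723 (without CTCFdegron replicate 1) to 5.00 (without defining replicate 2), and it was 4.82 without CTCFdegron replicate 3 and 3.71 without parental replicate 1. By site, 723 members (87.1%) had a peak in all 3 parental CTCF lists and 734 (88.4%) in all 3 CTCFdegron lists. The same shares were 80% and 15.7% for the other Rad21 sites. In the CTCFdegron CTCF libraries the mean shares were 95.0% ± 4.24 for members and 28.7% ± 10.1 for other Rad21 sites (SD, n = 3), a difference that was not tested. No parental CTCF list held a peak at 19 members (2.29%), 17 of them promoter sites, and at 7.59% of the other Rad21 sites. No CTCFdegron CTCF list did at 6 members, all promoter sites, and at 57.7% of the other sites. A CTCF peak in all 6 lists was found at 693 members (83.5%), and 2 members had none. These counts over all 6 lists were not made for the other Rad21 sites.

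Against the other Rad21 sites in the same parental CTCF libraries, members were higher by 6.61 ± 1.33 points (92.5% and 85.9%, 3 of 3 libraries, exact sign-flip permutation p = 0.25, the smallest possible). This direction changed with the choice of members and peaks, and the reason was not tested. The difference was -7.62 for the single-copy members, against other sites that could include the members left out. With members within 100 kb counted as 1 it was -3.02. It was also negative with stricter peaks, with shortened lists and when the members came from either defining library alone.

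Promoter and distal members differed in how often CTCF lists held them. In the parental CTCF libraries, 76.3% ± 7.53 of promoter members and 97.9% ± 0.537 of distal members had a peak (SD, n = 3), a difference of -21.6 ± 7.21 points. It was negative in 3 of 3 libraries (exact sign-flip permutation p = 0.25, the smallest possible). With the lists shortened it was -0.868, and with a fold enrichment of at least 4 it was -34.6. In CTCFdegron cells the difference was -14.1 ± 14.4 points (84.4% and 98.5%, 3 of 3 libraries, same test and p). It was -6.16 without CTCFdegron replicate 3 and -20.2 without replicate 1. Rad21 lists of CTCFdegron cells went the other way, with a peak at 89.9% ± 10.9 of promoter and 81.4% ± 15.5 of distal members. That difference was 8.44 ± 5.20 points (3 of 3 libraries, same test and p), and -2.97 with peaks at a -log10 q of at least 3. It was 19.7 for members defined without defining replicate 2.

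The lone single-copy promoters were the kind of member with the lowest shares in CTCF lists. In parental CTCF libraries 63.0% ± 12.4 of the 128 had a peak (SD, n = 3), and in CTCFdegron cells 75.8% ± 24.6. Clustered members were at 99.1% ± 0.483 and 99.2% ± 0.209, and lone single-copy distal members at 90.4% ± 1.37 and 95.4% ± 4.81. Other Rad21 sites at promoters were at 83.0% ± 5.79 and 44.2% ± 16.2. In Rad21 libraries of CTCFdegron cells the lone single-copy promoters were at 91.9% ± 12.7 and other Rad21 promoters at 72.9% ± 12.4. These 4 sets were described and not tested.

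**Figure D5:**
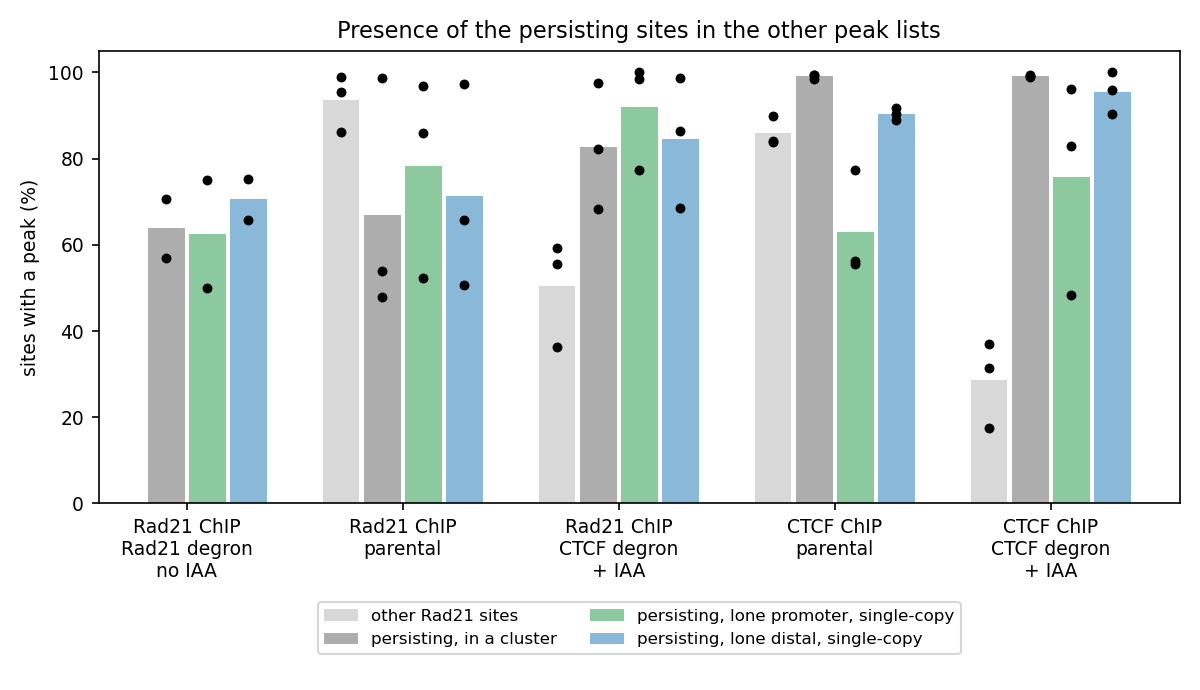
Bars give the mean percent of sites with a peak (y axis) for 4 sets of sites in each group of libraries (x axis), and points give single libraries (2 or 3 a group). In CTCF ChIP of CTCFdegron cells with IAA, clustered persisting sites stand at 99.2% and other Rad21 sites at 28.7%; the latter are not drawn for the untreated Rad21degron lists that define them.

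The width of a member and the length of a list moved with these percents. Of the 172 members narrower than 200 bp, 93.6%, 50.6% and 27.3% had a peak in the 3 parental Rad21 lists, against 99.5%, 74.7% and 65.2% of the 379 members of 400 bp or more. Those lists hold 67810, 43925 and 29724 mouse peaks. In the CTCFdegron CTCF lists the narrow members were at 95.3%, 87.8% and 76.7%, and the wide ones at 99.2% or more. The part of width and list length in the comparisons above was not tested. The shortened lists cannot separate length from the number of stronger peaks in a list.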

How the data were processed

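The series holds 24 samples, of which 16 ChIP libraries in 6 groups have a peak list each and 8 inputs were not used. The labels' protocols name an AJ851868/mm9 hybrid as the alignment target, and the submitters' processing notes name Bowtie2 2.2.8, SAMtools 1.8, mm9 and hg19. The peak caller, its threshold and its use of inputs are not given in the sources used here, and no list pools libraries. The deposited lists carry no header. Column 5 was read as a score, column 7 as the authors' fold enrichment (a ratio), and columns 8 and 9 as -log10 p-value and q-value, from the broadPeak column order and the deposited values. The authors' fold enrichment was used to describe, rank and filter peaks within a list.

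The members and the gene lists were chosen with earlier results of these data known, as were the kinds of sites described. Peaks on mouse chromosomes of the 2 defining lists were merged where they overlapped by at least 1 bp, and a site was present in a list when any peak overlapped it by 1 bp, with the highest fold enrichment taken. Transcript starts and exons came from GENCODE vM1, and sequence from NCBIM37. Words of 31 bases were counted over the whole reference on both strands. Sites on chromosome 18 are counted but not named. Named sites were the 5 very-high, 15 promoter and 8 distal members with the highest mean percentile rank in the 2 defining lists, the 3 sites on each side of the limit of 20, and promoter members of the fixed gene lists. The clusters, the further mitochondrial sites and the second Malat1 site were singled out after their values were seen.

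Libraries were the unit of every test. The difference between 2 groups' mean percents was tested by exact permutation of the libraries (two-sided), and sets of sites with exact two-sided sign-flip tests of within-library differences. None of the 8 designs can reach 0.05, and no p-value was adjusted. Same-numbered Rad21 libraries of the parental and CTCFdegron groups deviated together over the 830 members (r = 0.459, 0.162 and 0.212), and CTCF libraries did not in every pair (0.184, -0.050 and 0.037). The labels do not say what a number marks. Alternatives comprised stricter peaks, other overlaps, autosomes and X alone, equal list lengths, each library left out, a replicate block, spike-in libraries alone, and other class limits. Counting members within 100 kb as 1 and single-copy members alone were chosen after seeing the data. With single-copy members alone, the members left out could count as other Rad21 sites. The site functions were tested on simulated lists with planted sites. Analysis used Python 3.11.15, numpy 2.4.6, pandas 2.3.3 and pysam 0.24.0.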

Additional observations from a re-analysis of the deposited data

How the results depend on the processing

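The number of persisting sites was 367 with peaks at a -log10 q of 3 or more, 536 when a peak had to cover 50% of a site, and 1384 to 3588 with 1 defining library left out. The count of very-high sites was 5 with peaks within 1000 bp joined. The promoter share was 18.8% with the stricter q, 19.96% with 50% cover, 33.7% with joined peaks, 31.6% within 2500 bp, 54.7% for single-copy members and 28.6% to 52.7% with 1 defining library left out. Of 137 recalculations of the tested differences, 125 kept their direction and 12 reversed, and the causes were not tested. The difference between untreated Rad21degron and parental Rad21 lists reversed to 9.48 with shortened lists and to 9.28 in spike-in libraries alone, and ranged from -15.5 to 9.28 with 1 library left out. The difference between members and other Rad21 sites in parental CTCF lists reversed to -6.02 with the stricter q, -1.38 with a fold enrichment of 4 or more, -51.0 with shortened lists, -3.02 with members within 100 kb counted as 1 and -7.62 for single-copy members. It ranged from -20.2 to 22.4 with 1 library left out, and was -2.34 without defining replicate 1 and -20.2 without replicate 2. The Rad21 difference between promoter and distal members in CTCFdegron cells reversed to -2.97 with the stricter q.

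With a replicate block, the differences were 14.6 points for Rad21 in CTCFdegron against parental cells, 2.45 for CTCF, and -15.4 for untreated Rad21degron against parental cells over the 2 shared numbers, each with an exact sign-flip permutation p of 0.5, and the block changed no call. No design could pass 0.05, so these p-values say nothing about stability. Depth is unknown for every list, and a missing peak may reflect list length.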
